A study of Komagataella pastoris with 6 samples.

Results

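The genes described here belong to the oxidation of methanol to carbon dioxide in *Pichia pastoris*, including a catalase that breaks down the hydrogen peroxide formed. They were chosen by identifier, and 6 of the 5040 genes in the count table belong to the set, namely the alcohol oxidase genes AOX1 (PAS_chr4_0821) and AOX2 (PAS_chr4_0152), the catalase gene CTA1 (PAS_chr2-2_0131), and FLD1 (PAS_chr3_1028), FGH1 (PAS_chr3_0867) and FDH1 (PAS_chr3_0932) of the formaldehyde branch. All 6 passed the filter of a mean of at least 10 reads, and each had a mean above 10 reads in either strain on its own.

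RNA was sequenced from the flocculating strain KM71-ScFlo1-LpDLDH (3 cultures) and the control strain KM71-LpDLDH (3 cultures). Both strains express the d-lactate dehydrogenase gene LpDLDH of *Leuconostoc pseudomesenteroides*, and the flocculating strain also expresses the flocculin gene ScFLO1 of *Saccharomyces cerevisiae*. Both genes stood under the constitutive GAP promoter. The cultures started at an OD600 of 0.05 in MGYH medium, which is minimal and contains glycerol, and were sampled in mid-exponential growth after about 21 h at 30 °C and 250 rpm. Methanol is not among the stated components of this medium. Both strains descend from KM71, a laboratory strain in which AOX1 is disrupted, so the disruption is shared by all 6 cultures. The number of transformants behind each strain was not stated, and ScFLO1 cannot be told apart from the HIS4 plasmid that carried it or from other differences between these isolates.

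*P. pastoris* can grow on methanol as its only carbon source. Alcohol oxidase, in the peroxisome, converts methanol and oxygen to formaldehyde and hydrogen peroxide, and catalase breaks down the peroxide. Formaldehyde that is not assimilated reacts with glutathione, and the adduct is oxidised by formaldehyde dehydrogenase (FLD1), hydrolysed to formate by S-formylglutathione hydrolase (FGH1) and oxidised to carbon dioxide by formate dehydrogenase (FDH1), with NADH formed at both dehydrogenase steps. Alcohol oxidase genes are known for strong induction by methanol and for repression by glycerol and glucose. In strains with a disrupted AOX1, growth on methanol is slow and relies on AOX2.

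The libraries held between 10386352 and 12767753 reads on genes. Replicates of a strain differed beyond counting noise (chi-square divided by its degrees of freedom of at least 11.9 for every pair), so all 6 libraries were kept as separate replicates. Levels are given as CPM (read counts divided by the TMM-scaled library size in megareads), with the SD over 3 cultures. Log2 fold changes have KM71-ScFlo1-LpDLDH as numerator. The SE beside them was computed from replicate log2 CPM and is not the SE of the fit. CPM values are not corrected for transcript length, so levels of different genes were not compared as results. A gene was called at a Benjamini-Hochberg adjusted p under 0.05 from edgeR's quasi-likelihood test, fitted over 5029 genes, together with a fold change above 2.

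The strains differed at every step. AOX2, CTA1, FLD1, FGH1 and FDH1 were higher in the flocculating strain and AOX1 was lower, and 6 of 6 genes were called. Of all tested genes, 16.4% were called in either direction. Calls on the higher side took in 5 of the 6 genes, against 8.41% of all tested genes, and calls on the lower side took in 1, against 7.99%. On the adjusted p alone, 6 of 6 passed, against 64.2% of all tested genes. In 6 of 6 genes the strains did not overlap, which was also true of 68.9% of all tested genes. The median log2 fold change of the 6 genes was 1.47, and that of all tested genes was 0.02. Together the 6 genes accounted for 0.370% to 0.459% of reads in the KM71-ScFlo1-LpDLDH libraries and 0.0965% to 0.111% in the KM71-LpDLDH libraries. In this bulk RNA, less RNA per cell and fewer cells with the RNA cannot be told apart.

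**Figure D1:**
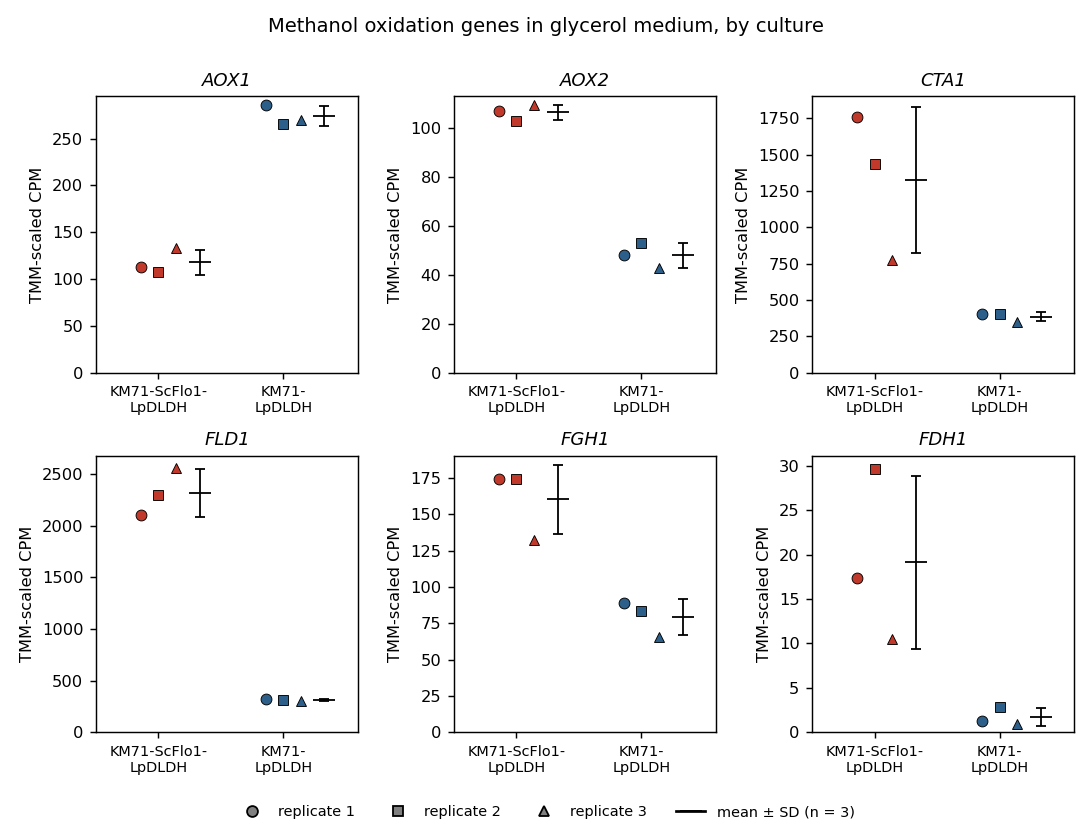
Level of each methanol oxidation gene (TMM-scaled CPM, linear axes from 0) in the 3 cultures of KM71-ScFlo1-LpDLDH and the 3 of KM71-LpDLDH, with symbols for the replicate number and bars for mean ± SD (n = 3). The strains do not overlap in any panel, AOX1 is the 1 gene that is lower in the flocculating strain, and CTA1 and FDH1 spread most among its cultures.

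**Figure D2:**
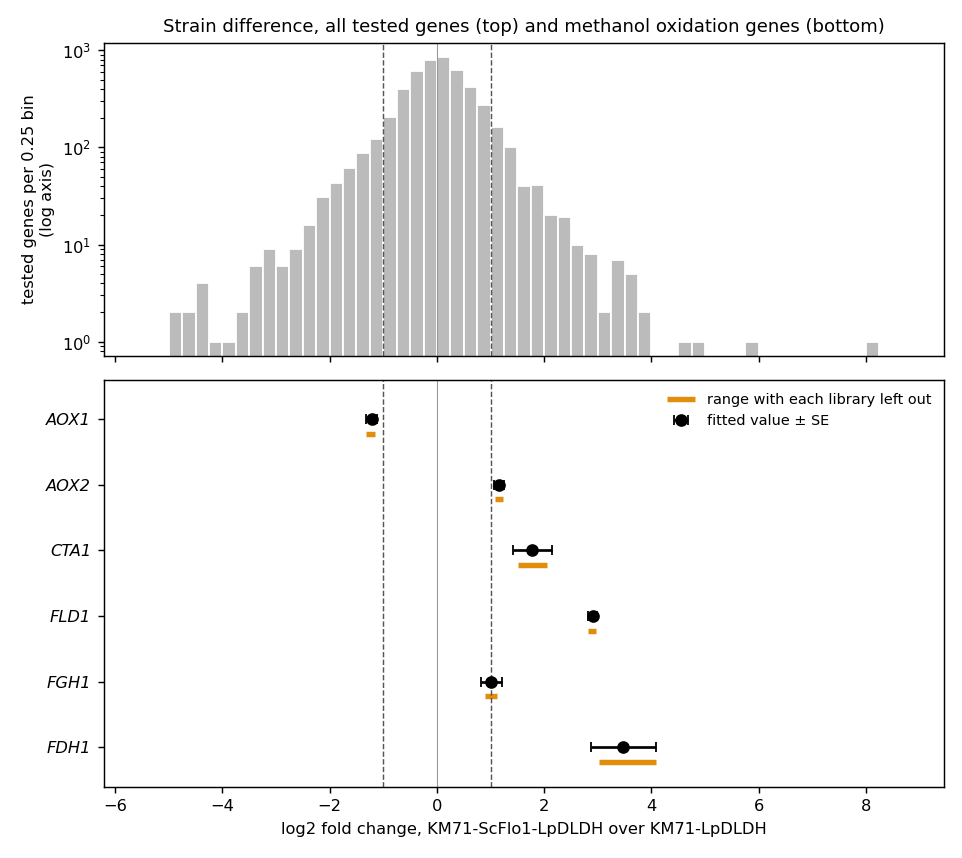
Log2 fold changes of KM71-ScFlo1-LpDLDH over KM71-LpDLDH for all 5029 tested genes (top, number of genes per bin on a log axis) and for the methanol oxidation genes (bottom). Black marks the fitted value ± SE, with the SE taken from replicate log2 CPM and not from the fit. Orange marks the leave-one-out range. Dashed lines mark a fold change of 2 in either direction. FGH1 sits on the line, and FLD1 and FDH1 rank 24 and 13 among the rises.

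The 2 alcohol oxidase genes moved in opposite directions. AOX1 had 113, 108 and 133 CPM in replicates 1, 2 and 3 of KM71-ScFlo1-LpDLDH, against 286, 266 and 270 CPM in those of KM71-LpDLDH. Its highest level in the flocculating strain was thus well below its lowest in the control strain. The fitted log2 fold change was -1.22 (SE 0.10, adjusted p = 2.15e-06 by edgeR), a 2.33-fold lower level, and the gene ranked 293 among the falls. These reads were assigned to AOX1, whose locus is disrupted in both strains, and whether all of them arise there was not tested. The table gives 1 count per gene, so which part of AOX1 the reads cover was not analysed here.

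AOX2, the intact gene for the same enzyme activity, had 107, 103 and 109 CPM in replicates 1, 2 and 3 of KM71-ScFlo1-LpDLDH, against 48.0, 52.9 and 42.7 CPM in those of KM71-LpDLDH. The 3 flocculating cultures were nearly alike, with an SD of 3.23 CPM around a mean of 106 CPM. The log2 fold change was 1.15 (SE 0.09, adjusted p = 4.19e-06 by edgeR), a 2.22-fold higher level, and the gene ranked 314 among the rises. Both calls held whichever library was left out, at log2 fold changes from -1.32 to -1.16 for AOX1 and from 1.07 to 1.23 for AOX2.

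AOX1 reads made up 51.3% of the AOX1 and AOX2 reads of replicate 1 of KM71-ScFlo1-LpDLDH (95% exact Clopper-Pearson interval 49.5% to 53.1%), 51.2% of those of replicate 2 (49.2% to 53.2%) and 54.9% of those of replicate 3 (52.9% to 56.8%). In KM71-LpDLDH the share was 85.6% in replicate 1 (84.5% to 86.7%), 83.4% in replicate 2 (82.2% to 84.6%) and 86.4% in replicate 3 (85.2% to 87.5%). The intervals cover counting error only. The mean share was 52.5% ± 2.08 (SD, n = 3) in KM71-ScFlo1-LpDLDH and 85.1% ± 1.53 (SD, n = 3) in KM71-LpDLDH, a difference of -32.7 percentage points with p = 0.1 in a two-sided exact permutation test. That is the smallest p that 3 cultures against 3 allow. Being a ratio within a library, the share does not depend on the scaling between libraries.

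AOX1 and AOX2 are closely similar in sequence. The methods refer to uniquely mapped reads, and how reads matching both genes were treated was not analysed here, so the split between them is uncertain. With both genes summed as 1 feature, a choice made after the values were seen, the level was 220, 211 and 242 CPM in replicates 1, 2 and 3 of KM71-ScFlo1-LpDLDH and 334, 319 and 312 CPM in those of KM71-LpDLDH. The sum was lower in every flocculating culture than in every control culture. Its log2 fold change was -0.52 (SE 0.07, adjusted p = 0.000324 by edgeR), which lies below the fold change cut-off, so the sum was not called.

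**Figure D3:**
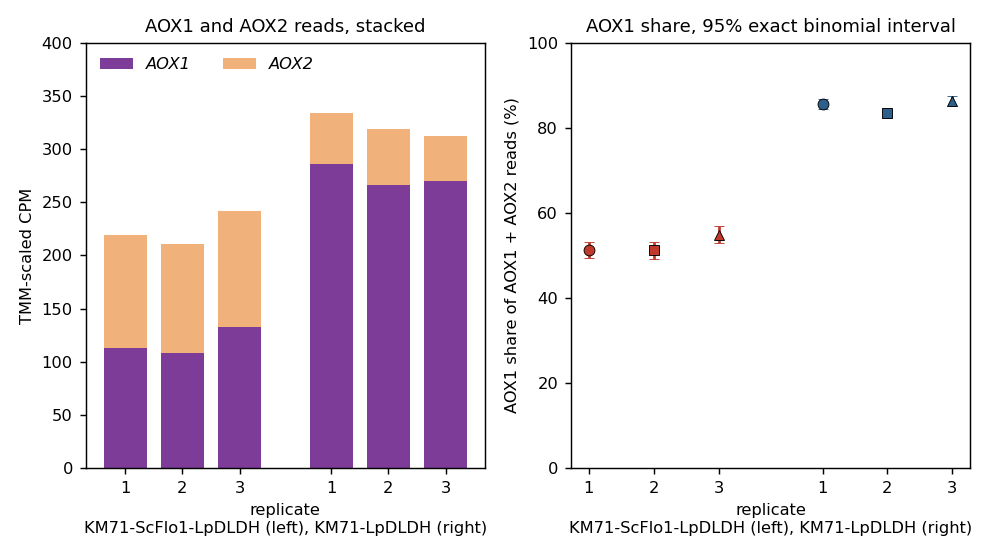
Left, AOX1 and AOX2 levels stacked for each library (TMM-scaled CPM); right, AOX1 reads as a percentage of AOX1 plus AOX2 reads with 95% exact binomial intervals. The flocculating libraries (left of each panel) sit between 51.2% and 54.9% and the control libraries between 83.4% and 86.4%, and the stacked total is lower in the flocculating libraries.

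CTA1, whose product removes the hydrogen peroxide made by alcohol oxidase and by other peroxisomal oxidases, had 1761, 1436 and 773 CPM in replicates 1, 2 and 3 of KM71-ScFlo1-LpDLDH, against 406, 403 and 346 CPM in those of KM71-LpDLDH. The cultures of the flocculating strain thus spread far more than those of the control strain, with a mean of 1323 ± 503 CPM (SD, n = 3) in KM71-ScFlo1-LpDLDH and 385 ± 33.8 CPM (SD, n = 3) in KM71-LpDLDH. The lowest flocculating culture still lay above the highest control culture. The log2 fold change was 1.78 (SE 0.36, adjusted p = 0.000126 by edgeR), a 3.43-fold higher level. It was 2.05 without replicate 3 of KM71-ScFlo1-LpDLDH and 1.52 without replicate 1 of that strain, and it was called in both cases.

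FLD1 showed the most uniform of the large rises. The gene had 2103, 2299 and 2565 CPM in replicates 1, 2 and 3 of KM71-ScFlo1-LpDLDH, against 321, 309 and 301 CPM in those of KM71-LpDLDH. Replicates of either strain lay close together relative to the gap between the strains, with means of 2322 ± 232 CPM (SD, n = 3) in KM71-ScFlo1-LpDLDH and 310 ± 10.1 CPM (SD, n = 3) in KM71-LpDLDH. The log2 fold change was 2.90 (SE 0.09, adjusted p = 2.77e-08 by edgeR), a 7.49-fold higher level, at rank 24 among the rises. It stayed within 2.82 to 2.97 whichever library was left out.

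FGH1, which acts on the product of FLD1, had the smallest fold change of the 6 with all libraries. It had 174, 174 and 133 CPM in replicates 1, 2 and 3 of KM71-ScFlo1-LpDLDH, against 89.2, 83.6 and 65.2 CPM in those of KM71-LpDLDH. Replicate 3 was the lowest culture of either strain, and the strains did not overlap. The log2 fold change was 1.01 (SE 0.19, adjusted p = 0.000122 by edgeR), a 2.02-fold higher level that lay at the cut-off. The call was lost on fold change alone, with the adjusted p still under 0.05, without replicate 1 or 2 of KM71-ScFlo1-LpDLDH (log2 fold changes of 0.95 and 0.95), without replicate 3 of KM71-LpDLDH (0.89), and with DESeq2 (0.999). Over all alternatives the adjusted p of FGH1 ranged from 2.55e-10 with DESeq2 to 0.000973 with edgeR.

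FDH1 had few reads in the control strain and the highest fold change of the 6. It had 233, 344 and 108 reads in replicates 1, 2 and 3 of KM71-ScFlo1-LpDLDH, against 15, 36 and 11 reads in those of KM71-LpDLDH. Scaled for depth, these were 17.4, 29.7 and 10.5 CPM in KM71-ScFlo1-LpDLDH and 1.29, 2.84 and 0.946 CPM in KM71-LpDLDH. Replicate 2 was the highest and replicate 3 the lowest culture of either strain, and the spread relative to the mean was wide in both (50.8% in KM71-ScFlo1-LpDLDH and 59.7% in KM71-LpDLDH). The log2 fold change was 3.48 (SE 0.61, adjusted p = 9.05e-05 by edgeR), an 11.1-fold higher level, which ranked 13 among the rises. The ratio of the summed scaled reads was 11.2, and counting error alone gives it a 95% exact binomial interval of 8.66 to 14.8. Without replicate 2 of KM71-LpDLDH the log2 fold change became 4.09, and without replicate 2 of KM71-ScFlo1-LpDLDH it was 3.02, both of them called.

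The cultures of the flocculating strain did not vary together over the 6 genes. Replicate 3 of KM71-ScFlo1-LpDLDH had the highest level of its strain for AOX1, AOX2 and FLD1, and the lowest for CTA1, FGH1 and FDH1. In KM71-LpDLDH, replicate 3 was the lowest for AOX2, CTA1, FLD1, FGH1 and FDH1, and AOX1 was lowest in replicate 2. With both libraries numbered 3 left out, an alternative chosen after the values were seen, all 6 genes were still called in the same direction.

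Neighbouring steps were also compared by the ratio of their read counts within each library, which is free of scaling between libraries. The ratios are not per length, so only their difference between the strains is read. Over the 5 ratios computed, the smallest p of a two-sided exact permutation test is 0.1, which is 0.167 after Benjamini-Hochberg adjustment, so no ratio could pass a threshold of 0.05.

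The ratio of FLD1 to the oxidase gene AOX2 was higher in every flocculating culture than in every control culture. FLD1 reads were 19.7, 22.4 and 23.5 times those of AOX2 in replicates 1, 2 and 3 of KM71-ScFlo1-LpDLDH, against 6.68, 5.84 and 7.05 times in those of KM71-LpDLDH. The ratio was 3.35-fold higher in the flocculating strain with no overlap (exact permutation p = 0.1, adjusted p = 0.167). Its size depends on the uncertain split of reads between AOX1 and AOX2. The ratio of FGH1 to FLD1 was lower in every flocculating culture. There were 0.0827, 0.0757 and 0.0517 FGH1 reads per FLD1 read in replicates 1, 2 and 3 of KM71-ScFlo1-LpDLDH, against 0.278, 0.271 and 0.217 in those of KM71-LpDLDH, a difference of -1.88 on the log2 scale with no overlap (exact permutation p = 0.1, adjusted p = 0.167).

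The ratio of FDH1 to FGH1 was higher in every flocculating culture. There were 0.0998, 0.170 and 0.0789 FDH1 reads per FGH1 read in replicates 1, 2 and 3 of KM71-ScFlo1-LpDLDH, against 0.0144, 0.0340 and 0.0145 in those of KM71-LpDLDH, a 5.73-fold higher ratio with no overlap (exact permutation p = 0.1, adjusted p = 0.167). Between the 2 dehydrogenase genes the strains overlapped. FDH1 had 0.00826, 0.0129 and 0.00408 reads per FLD1 read in replicates 1, 2 and 3 of KM71-ScFlo1-LpDLDH, against 0.00402, 0.00920 and 0.00315 in those of KM71-LpDLDH. The mean difference of 0.63 on the log2 scale was within the spread of the cultures, whose SDs were 0.84 in KM71-ScFlo1-LpDLDH and 0.81 in KM71-LpDLDH (exact permutation p = 0.4, adjusted p = 0.4). It was 0.25 without replicate 2 of KM71-ScFlo1-LpDLDH and 1.09 without replicate 2 of KM71-LpDLDH.

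The ratio of CTA1 to AOX2 also overlapped between the strains. CTA1 had 16.5, 13.97 and 7.09 reads per AOX2 read in replicates 1, 2 and 3 of KM71-ScFlo1-LpDLDH, against 8.46, 7.63 and 8.12 in those of KM71-LpDLDH. The first and second flocculating cultures lay above all control cultures and replicate 3 lay below them. The mean difference was 0.55 on the log2 scale (exact permutation p = 0.4, adjusted p = 0.4), and it was 0.30 without replicate 1 and 0.91 without replicate 3 of KM71-ScFlo1-LpDLDH. The overlap holds for AOX2 as denominator and not for AOX1 and AOX2 summed. CTA1 had at least 7987 reads in each flocculating library and at most 5111 in each control library. The summed AOX1 and AOX2 reads were at most 2948 in the flocculating libraries and at least 3634 in the control libraries.

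**Figure D4:**
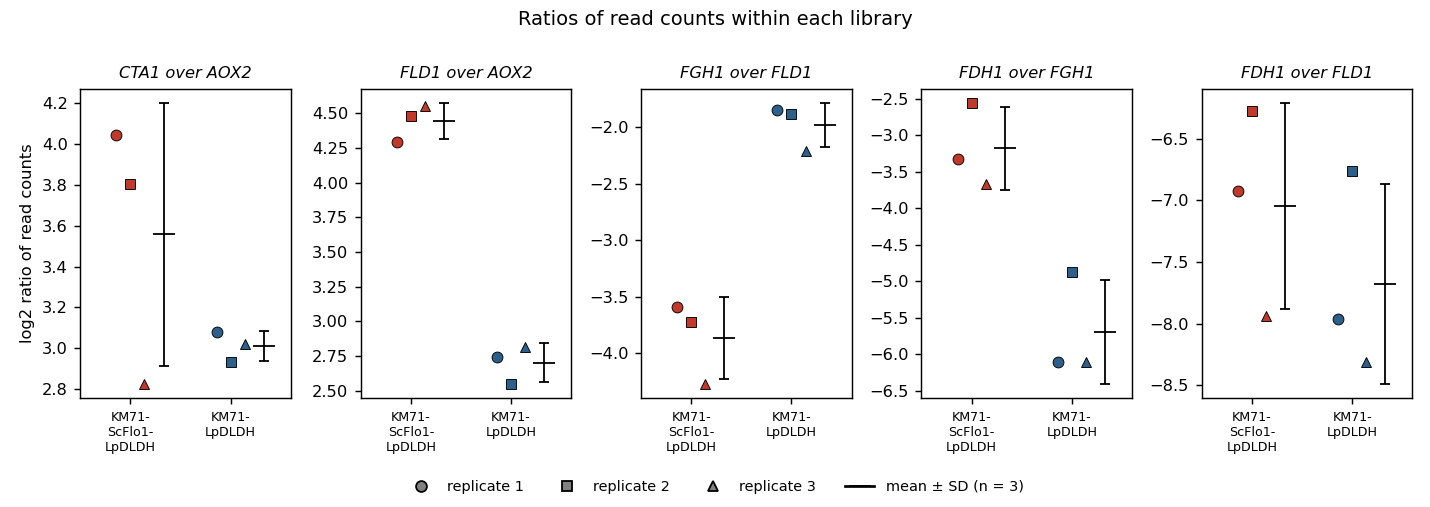
Log2 ratios of read counts of 2 genes within each library, one panel per ratio, for the 3 cultures of KM71-ScFlo1-LpDLDH and the 3 of KM71-LpDLDH, with mean ± SD (n = 3). Each panel has its own axis, which does not start at 0. FLD1 over AOX2, FGH1 over FLD1 and FDH1 over FGH1 separate the strains, while CTA1 over AOX2 and FDH1 over FLD1 overlap.

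The genes with the most similar profile were sought by Pearson's r of log2 CPM over the 6 libraries, which form 2 clusters by strain, so that r mostly reflects the strain difference. For FLD1 the nearest gene was PAS_chr1-3_0008 (r = 0.9997), with 71.4 ± 6.06 CPM (SD, n = 3) in KM71-ScFlo1-LpDLDH and 19.5 ± 0.411 CPM (SD, n = 3) in KM71-LpDLDH. For CTA1, which varied among the flocculating cultures, it was PAS_chr1-4_0556 (r = 0.998), with 16.7 ± 2.78 CPM (SD, n = 3) in KM71-ScFlo1-LpDLDH and 9.92 ± 0.481 CPM (SD, n = 3) in KM71-LpDLDH. For AOX1 it was PAS_chr4_0247 (r = 0.9997), with 76.8 ± 8.90 CPM (SD, n = 3) in KM71-ScFlo1-LpDLDH and 197 ± 9.46 CPM (SD, n = 3) in KM71-LpDLDH. Such values are common here, since 138 genes had an r above 0.99 with FLD1, 29 with CTA1 and 141 with AOX1. No source used here gives names for these 3 identifiers.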

How the data were processed

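The authors removed low-quality sequences with fastp, aligned the reads to the GS115 genome with HISAT2 and obtained counts per gene from HTSeq-count. Tool versions were not given in the sources used here, nor was the strand setting of the counting. The deposited table was taken to hold these read counts. Although its name calls it normalized, its values are whole numbers with unequal totals and were taken as raw counts. Its columns were matched to samples by the heatmap caption, which says which column names stand for cultures with and without ScFLO1, and by replicate number, and 0 columns were left without a sample.

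Counts were tested with edgeR 4.0.16 (R 4.3.3) after TMM scaling, for all genes whose mean was at least 10 reads. The SE was computed from replicate log2 CPM (prior count 2), and exact tests were run in scipy 1.17.1. DESeq2 1.42.0, limma 3.58.1, other scalings, filters, prior counts and thresholds, a replicate block and each library left out were the alternatives. The test was checked on simulated counts. Each strain was sampled from 3 cultures. Genes and lists were chosen with earlier results of these data known. The named genes were the 6 genes of the set and, for at most 4 of them (taken by mean CPM, an order used only for this choice), the nearest profile, with at most 2 unnamed identifiers in each direction. Other pathway genes, gene lengths, positions and sequences were not analysed here, since 0 identifiers matched the reference gene table, which is for *Komagataella pastoris*, while the study's yeast is now named *Komagataella phaffii*.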

Additional observations from a re-analysis of the deposited data

How the results depend on the processing

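The directions of the 6 genes held under all 16 alternatives each, and all calls but that of FGH1 held as well. The log2 fold change of FGH1 was 1.01 with all libraries and lost the fold change cut-off with DESeq2 (0.9987), when edgeR used the size factors of DESeq2 (0.9989), and with a library left out, where it ranged from 0.89 to 1.13. It kept the call under 11 of the 16. Total-count scaling moved the median over all genes to 0.13 on the log2 scale, against 0.02 with TMM, and changed no call among the 6. Over all genes it gave 522 higher and 340 lower calls, against 423 and 402 with TMM. With the replicate number as a block, the log2 fold change of FDH1 was 3.51, against 3.48 without it, and no call among the 6 changed. The block lowered the adjusted p of CTA1, FGH1 and FDH1 and raised that of AOX1, AOX2 and FLD1. The numbers were not taken as pairs, because the correlations of the deviations of same-numbered libraries were -0.13, 0.05 and 0.11. Those of differently numbered libraries ranged from -0.25 to 0.28. With each library left out, the within-library differences kept their direction (0.25 to 1.09 on the log2 scale for FDH1 over FLD1), and the summed AOX1 and AOX2 reads stayed between -0.58 and -0.48 on the log2 scale. FDH1 had 62 reads over the 3 libraries of KM71-LpDLDH, so counting error adds to the spread between its cultures.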
